A study of Mus musculus with 6 samples.

Results

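The 10 genes described here are the nuclear receptors of the PPAR family, their partner receptors, their coactivators and a set of direct targets: Pparg, Ppara, Ppard, Rxra, Nr1h3, Ppargc1a, Ppargc1b, Angptl4, Pdk4 and Fabp4. They were taken by symbol from the authors' deposited table of 24312 rows, and all 10 had a row. RNA was measured in myeloid-derived suppressor cells (MDSCs), immature myeloid cells that restrain T cells, grown from femur marrow of Pim1-/- mice and of wild-type C57BL/6 mice. Both groups carry the strain label C57BL/6 and the cell label CD11b+ Gr1+, and both were cultured for 7 days in GM-CSF plus IL-6 at 40 ng/mL each. Pim1 encodes a serine/threonine kinase induced by such cytokines, and its transcript was at 22.7 FPKM (read here as fragments scaled by transcript length and library size) in Pim1 knockout cells and 90.2 FPKM in wild-type cells. The labels give 3 biological replicates per genotype, without age, sex or the extent of the Pim1 deletion, and the table holds 1 pooled value per gene and genotype. No spread between replicates can therefore be set beside a level, and fold changes, p-values and adjusted p-values are the authors' own unless said otherwise. Errors, 95% intervals, differences between genes and a stricter reading of the test statistic were derived here from the deposited fold changes and test statistics.

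PPARs are ligand-activated transcription factors that sense fatty acids and their oxidised derivatives and bind DNA as heterodimers with an RXR. PPAR gamma drives lipid uptake and storage in adipocytes and, under GM-CSF, the lipid-handling program of lung alveolar macrophages, whereas PPAR alpha and PPAR delta are best known for fatty acid oxidation in liver and muscle. The PGC-1 coactivators, among them those encoded by Ppargc1a and Ppargc1b, raise the activity of these receptors and of mitochondrial gene programs.

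Pparg, the member of the receptor family that was lower in Pim1 knockout cells, has several transcription start sites, and the pooled table does not show which of them was used. The 3 RefSeq windows around its starts are printed because Pparg is the called receptor, and the Ppard window because Ppard is the only other PPAR gene with a tested level. Each runs from 250 bases before to 50 bases after a start, in build GRCm38.p6 on the plus strand, and capitals mark the nuclear receptor hexamer AGGTCA on either strand.
Pparg start 1, chr6:115360894-115361193: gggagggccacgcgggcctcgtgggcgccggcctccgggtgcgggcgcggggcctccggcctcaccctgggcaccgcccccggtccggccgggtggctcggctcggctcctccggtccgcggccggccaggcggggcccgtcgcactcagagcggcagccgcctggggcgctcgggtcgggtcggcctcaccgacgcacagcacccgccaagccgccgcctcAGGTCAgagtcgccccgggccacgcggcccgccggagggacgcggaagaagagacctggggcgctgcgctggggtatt
Pparg start 2, chr6:115362099-115362398: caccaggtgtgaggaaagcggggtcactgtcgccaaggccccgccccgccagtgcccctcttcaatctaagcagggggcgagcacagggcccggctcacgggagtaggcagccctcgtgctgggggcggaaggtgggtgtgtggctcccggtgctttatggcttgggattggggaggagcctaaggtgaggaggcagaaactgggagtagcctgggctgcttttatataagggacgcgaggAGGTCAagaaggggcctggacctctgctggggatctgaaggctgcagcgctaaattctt
Pparg start 3, chr6:115421816-115422115: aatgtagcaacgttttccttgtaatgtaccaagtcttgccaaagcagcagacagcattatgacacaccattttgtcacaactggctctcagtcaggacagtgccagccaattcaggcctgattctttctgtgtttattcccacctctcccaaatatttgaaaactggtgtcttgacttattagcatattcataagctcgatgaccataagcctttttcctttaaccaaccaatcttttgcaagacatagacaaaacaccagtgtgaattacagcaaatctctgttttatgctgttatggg
Ppard, chr17:28232504-28232803: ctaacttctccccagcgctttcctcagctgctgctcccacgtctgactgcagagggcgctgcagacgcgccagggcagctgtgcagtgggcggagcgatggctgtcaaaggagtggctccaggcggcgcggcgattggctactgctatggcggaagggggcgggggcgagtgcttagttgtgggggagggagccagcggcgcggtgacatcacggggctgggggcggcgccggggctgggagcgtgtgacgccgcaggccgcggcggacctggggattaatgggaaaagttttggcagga

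The GC content of the Pparg windows was 80.3% at start 1, 62.7% at start 2 and 40.3% at start 3, and they held 44, 13 and 2 CpG dinucleotides. The GENCODE M21 transcript Pparg-201 begins within 50 bases of start 3, and Pparg-203 and Pparg-206 begin within 50 bases of start 2. A hexamer lay 28 bases before start 1 and another lay 9 bases before start 2, whereas start 3 and the Ppard window had none. Of the other genes with an entry, Rxra, which was not called, held hexamers at positions -87 and -48 relative to start 2 of its 2 starts. Of all 32851 RefSeq promoter windows of this length, 16.3% hold the hexamer. The full PPAR and RXR element, a direct repeat of the hexamer with a spacer of 1 base (AGGTCANAGGTCA), was found in 0.0396% of all windows, and the LXR and RXR element with a spacer of 4 bases (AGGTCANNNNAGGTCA) in 0.0152%. The STAT site TTCNNNGAA, searched because GM-CSF and IL-6 signal through STAT factors, was found in 8.30% of all windows. Both strands were searched for each motif, the hexamer lies inside both repeats, and none of the 11 windows of the 7 genes with an entry held either repeat or the STAT site. Angptl4 and Fabp4 had no entry, and the promoter of Ppargc1b was not analysed here.

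Pparg and its target Angptl4 were lower in Pim1 knockout cells, and the other 5 genes of the group with a tested level did not pass the threshold. A gene was called at an adjusted p below 0.05 in the authors' deposited table, which adjusts over the 11079 rows marked as tested. Of the 10 genes 7 were tested, of which 2 fell and 0 rose. Among all tested genes 13.5% were called, 6.73% lower and 6.79% higher. Also at an unadjusted p below 0.05, 2 of the 7 were lower and 0 higher, and the same counts, 2 lower and 0 higher, were found under a stricter reading, in which the deposited test statistic stands for a standard normal value. The stricter reading called 3.31% of all tested genes, 1.47% lower and 1.85% higher. The median log2 fold change, Pim1 knockout over wild type throughout, was -0.09 over the 7 tested genes and 0.01 over all tested genes. As these are bulk samples of a mixed population, fewer cells of a type and less RNA per cell cannot be told apart.

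**Figure D1:**
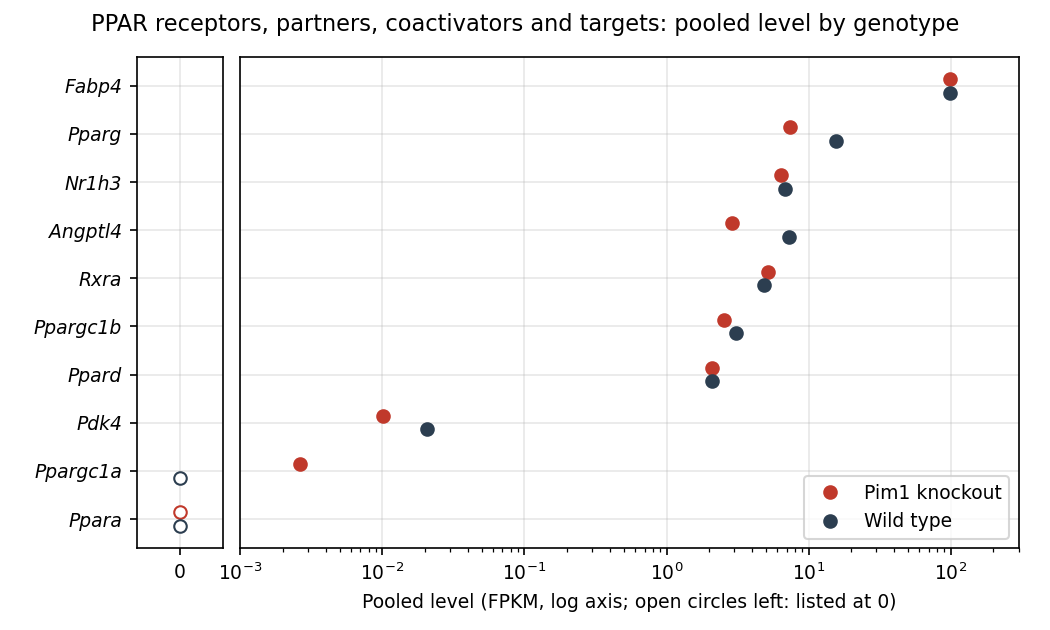
Pooled level of each of the 10 genes in FPKM on a log axis, with Pim1 knockout in red and wild type in dark blue, 1 authors' value per gene and genotype and no error bars because replicates were pooled. Open circles in the left panel are levels listed at 0. Pparg (7.34 against 15.6) and Angptl4 (2.90 against 7.32) lie apart between the genotypes, whereas Fabp4 lies at 98.4 and 98.3.

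Among the PPAR receptors, Pparg was the most abundant in both genotypes. Its level was 7.34 FPKM in Pim1 knockout cells, against 15.6 FPKM in wild-type cells, in the authors' deposited table (chromosome 6, 115310969 to 115440419 in the coordinates of that table, whose build is unsettled). Pparg thus stood at 0.471 of the wild-type level, a log2 fold change of -1.09 (error 0.30, the deposited change divided by its test statistic). Its adjusted p was 0.000831, the smallest listed by the authors' deposited table and shared by 667 genes. Of all tested genes 2.05% had a lower log2 fold change than Pparg.

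Ppard encodes PPAR delta, the broadly expressed member of the family, and its pooled levels nearly coincided. They were 2.09 FPKM in Pim1 knockout cells and 2.07 FPKM in wild-type cells, a log2 fold change of 0.01 (adjusted p = 0.996), per the authors' deposited table. The precision is low: the error was 1.0, so that the 95% interval ran from -1.95 to 1.97 and holds the fall seen for Pparg. Among 1619 tested genes within 1.5 times its mean level, the median error was 0.36 and 95.2% had a smaller error than Ppard. The table gives Ppard a locus of 174119 bases that overlaps those of 4 other rows, among them Def6 (28.3 and 23.3 FPKM in Pim1 knockout and wild type) and Zfp523 (2.65 and 3.66 FPKM in Pim1 knockout and wild type). Ppara, the receptor of liver and muscle, was listed at 0 in both genotypes and was not tested. The level of Pparg was 3.52 times that of Ppard in Pim1 knockout cells and 7.52 times in wild-type cells.

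Rxra encodes RXR alpha, one of the RXRs with which PPARs pair. Nr1h3 encodes LXR alpha, an oxysterol receptor that also pairs with RXR and is a known PPAR gamma target in macrophages. Rxra was at 5.19 FPKM in Pim1 knockout cells and 4.83 FPKM in wild-type cells, a log2 fold change of 0.10 (adjusted p = 0.776), per the authors' deposited table. The derived 95% interval of that change was -0.43 to 0.63. Nr1h3 was at 6.43 FPKM in Pim1 knockout cells and 6.82 FPKM in wild-type cells. Its log2 fold change was -0.09, with an adjusted p of 0.856, per the authors' deposited table, and the derived 95% interval was -0.71 to 0.54. Both intervals include 0, and each excludes a fall as large as the point estimate for Pparg. Pparg was 1.41 times as high as Rxra in Pim1 knockout cells and 3.23 times as high in wild-type cells. Rxra was not the more abundant RXR gene. Rxrb, named after its values were seen, was at 9.03 FPKM in Pim1 knockout cells and 11.5 FPKM in wild-type cells (adjusted p = 0.139), per the authors' deposited table. Its level was 1.74 times that of Rxra in Pim1 knockout cells and 2.38 times in wild-type cells.

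Of the PGC-1 coactivators, Ppargc1b was the one measured above trace level. It was at 2.52 FPKM in Pim1 knockout cells and 3.06 FPKM in wild-type cells, a log2 fold change of -0.28 (adjusted p = 0.397), per the authors' deposited table. The derived 95% interval was -0.93 to 0.36. Ppargc1a, the form induced by cold and fasting in brown fat, muscle and liver, was at 0.00262 FPKM in Pim1 knockout cells and listed at 0 in wild-type cells, and was not tested. The locus of Ppargc1b also holds the row of the microRNA gene Mir378a, listed at 0 in both genotypes.

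Of the 3 direct targets Angptl4 fell, Fabp4 was not called and Pdk4 was not tested. Angptl4, on chromosome 17 at 4.28 Mb from Pim1, encodes a secreted inhibitor of lipoprotein lipase that PPARs and hypoxia induce. Its level was 2.90 FPKM in Pim1 knockout cells, against 7.32 FPKM in wild-type cells, a log2 fold change of -1.33 (adjusted p = 0.000831), per the authors' deposited table, with a derived error of 0.35. Of all tested genes 1.39% had a lower log2 fold change. Fabp4 encodes the fatty acid binding protein of adipocytes and macrophages and was the most abundant of the 10 genes, above 91.02% of tested genes in mean level. It was at 98.4 FPKM in Pim1 knockout cells and 98.3 FPKM in wild-type cells, a log2 fold change of 0.00 (adjusted p = 0.997), per the authors' deposited table, with a derived 95% interval of -0.51 to 0.51. Pdk4, a kinase that shuts off pyruvate dehydrogenase when cells burn fat, was at trace level, 0.010 FPKM in Pim1 knockout cells and 0.0206 FPKM in wild-type cells, and was not tested.

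**Figure D2:**
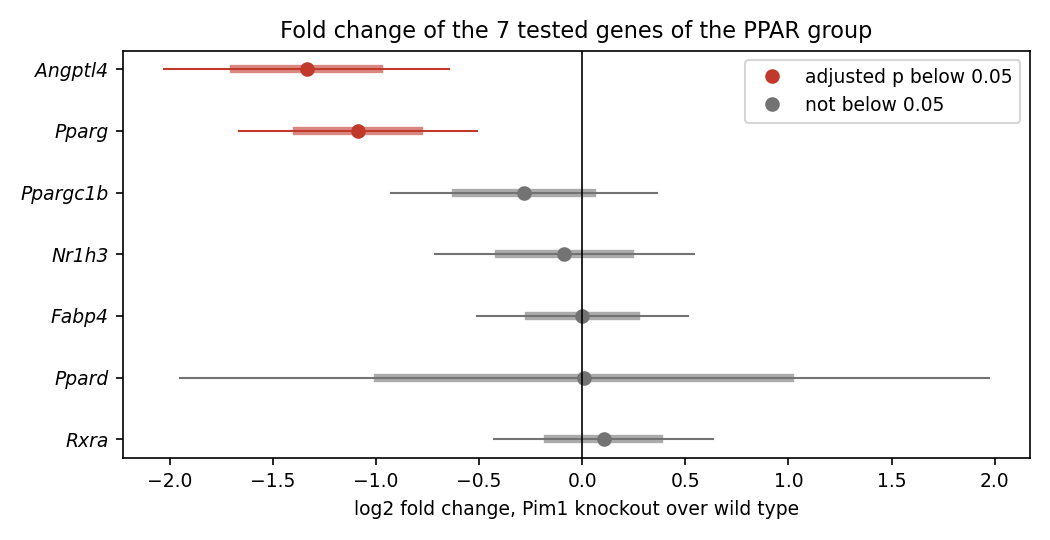
The log2 fold change, Pim1 knockout over wild type, of the 7 tested genes (points), with the error as thick bars and the 95% interval as thin lines; red marks an adjusted p below 0.05, per the authors' deposited table. The intervals of Angptl4 (-2.03 to -0.64) and Pparg (-1.67 to -0.51) lie below 0, and that of Ppard is the widest.

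The fall of Pparg was set against the changes of the other tested genes, with the errors of both combined as if independent. The log2 fold change of Pparg lay below that of Fabp4 by a difference of -1.09 (95% interval -1.86 to -0.32), below that of Rxra by -1.19 (-1.98 to -0.41) and below that of Nr1h3 by -1.0 (-1.85 to -0.15). Against Ppargc1b the difference was -0.81 (-1.67 to 0.06) and against Ppard -1.10 (-3.14 to 0.95), both intervals including 0. Pparg and Angptl4 differed by 0.25 (-0.65 to 1.15). Angptl4 lay below Fabp4 by -1.34 (-2.20 to -0.48), below Rxra by -1.44 (-2.31 to -0.57), below Nr1h3 by -1.25 (-2.18 to -0.32) and below Ppargc1b by -1.05 (-2.0 to -0.11), while against Ppard the interval was -3.42 to 0.73. Pparg and Angptl4 had been singled out by their calls, so these differences describe the values and are not tests. They concern genes of the same libraries, whose errors need not be independent.

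In the order of levels within a genotype Angptl4 changed place between the genotypes, whereas Pparg did not. Fabp4 ranked 1 and Pparg 2 of the 10 genes in both genotypes. Angptl4 ranked 5 in Pim1 knockout cells and 3 in wild-type cells, with a level 0.451 times that of Nr1h3 in Pim1 knockout cells and 1.07 times in wild-type cells. Fabp4 was 13.4 times as high as Pparg in Pim1 knockout cells and 6.31 times as high in wild-type cells. Since replicates were pooled, whether neighbours in this order differ beyond their spread was not tested.

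**Figure D3:**
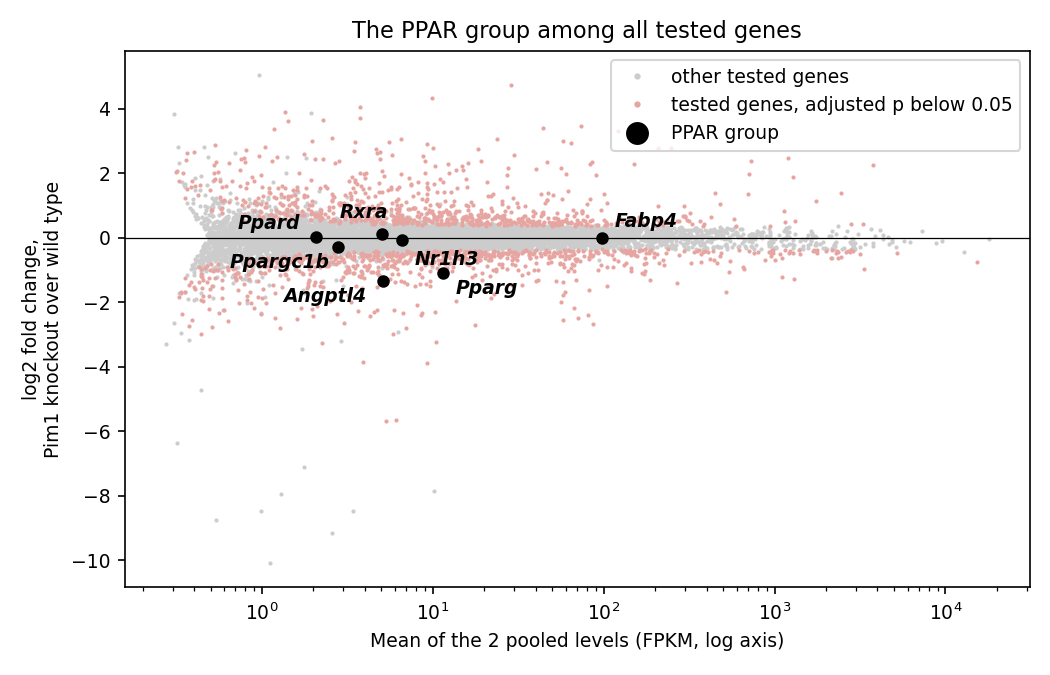
The log2 fold change, Pim1 knockout over wild type, against the mean of the 2 pooled levels in FPKM (log axis) for 11049 tested genes with a finite fold change. Pale red points have an adjusted p below 0.05, and black points are the 7 tested genes of the PPAR group; Pparg and Angptl4 lie among the called genes, and 5 of the 7 lie below the median level of 7.76 FPKM.

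Further targets of the PPARs were mostly not called, and those that were called went mainly down. Of 36 tested genes of a list of other PPAR targets, 7 fell and 1 rose (22.2% called, against 13.5% of all tested genes), with a median log2 fold change of -0.15. The stricter reading called 2 lower and 1 higher. This list and the lists that follow were written with earlier results of these data known. Olr1, a receptor for oxidised lipoproteins, fell to 0.965 FPKM in Pim1 knockout cells, against 2.73 FPKM in wild-type cells (adjusted p = 0.000831), per the authors' deposited table, with a derived error of 0.40 on the log2 scale. Mgll, which releases glycerol and free fatty acid from monoglycerides, fell to 40.2 FPKM in Pim1 knockout cells, against 71.4 FPKM in wild-type cells, and the transcription factor gene Klf10 to 13.5 FPKM in Pim1 knockout cells, against 23.0 FPKM in wild-type cells (both adjusted p = 0.000831), per the authors' deposited table. The remaining genes of the list that fell, named after their values were seen, were the fatty acid receptor Cd36, the acyl-CoA synthetase Acsl1, the oxidation enzyme Hadhb and glycerol kinase, Gyk. Cd36 was at 29.3 FPKM in Pim1 knockout cells and 39.0 FPKM in wild-type cells (adjusted p = 0.0248), Acsl1 at 14.7 and 22.1 FPKM in Pim1 knockout and wild type (adjusted p = 0.00156), Hadhb at 51.0 and 65.7 FPKM in Pim1 knockout and wild type (adjusted p = 0.0466) and Gyk at 3.25 and 5.31 FPKM in Pim1 knockout and wild type (adjusted p = 0.000831), per the authors' deposited table. The gene that rose was Fabp3. The most abundant targets were not called. Fabp5, the fatty acid binding protein of skin and macrophages, was at 2857 FPKM in Pim1 knockout cells and 2461 FPKM in wild-type cells (adjusted p = 0.402), and the mitochondrial carrier Ucp2 at 1581 FPKM in Pim1 knockout cells and 1686 FPKM in wild-type cells (adjusted p = 0.788), per the authors' deposited table. Cidea, Fgf21 and Pck1, targets best known from liver and fat and also named after their values were seen, were listed at 0 in both genotypes.

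Genes related to Fabp4 went in different directions. Fabp3, the heart-type binding protein, rose to 17.2 FPKM in Pim1 knockout cells, against 4.81 FPKM in wild-type cells, a log2 fold change of 1.84 (adjusted p = 0.000831), per the authors' deposited table, with a derived error of 0.44. Fabp7, the brain-type protein, fell to 1.35 FPKM in Pim1 knockout cells, against 7.27 FPKM in wild-type cells, a log2 fold change of -2.43 (adjusted p = 0.000831), per the authors' deposited table, with a derived error of 0.58. Of the 12 listed relatives only Fabp3, Fabp5 and Fabp7 were tested, 1 rising and 1 falling (66.7% called, against 13.5% of all tested genes). The most abundant of these proteins, Fabp5, was 29.0 times as high as Fabp4 in Pim1 knockout cells and 25.03 times as high in wild-type cells.

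Relatives of Pdk4 and Angptl4 were also measured. Of 13 tested genes of pyruvate dehydrogenase, its kinases and its phosphatases, 2 fell and 0 rose (median log2 fold change -0.12). The share called, 15.4%, was near the 13.5% of all tested genes. At an unadjusted p below 0.05 the counts were 3 lower and 1 higher, and 0 were called under the stricter reading. The kinase gene Pdk2 fell to 3.98 FPKM in Pim1 knockout cells, against 7.35 FPKM in wild-type cells, and the phosphatase subunit gene Pdpr to 1.31 FPKM in Pim1 knockout cells, against 2.68 FPKM in wild-type cells (both adjusted p = 0.000831), per the authors' deposited table. The pyruvate carrier genes Mpc1 (270.2 and 224.9 FPKM in Pim1 knockout and wild type) and Mpc2 (121.1 and 107.6 FPKM in Pim1 knockout and wild type) were the most abundant and were not called. Of 6 tested angiopoietin-like relatives and lipase partners, 2 rose and 0 fell (33.3% called, against 13.5% of all tested genes, median 0.26). The counts were the same at an unadjusted p below 0.05, with 1 rising under the stricter reading. The secreted factor Angptl2 rose to 2.62 FPKM in Pim1 knockout cells, against 1.56 FPKM in wild-type cells (adjusted p = 0.00822), and endothelial lipase, Lipg, to 0.885 FPKM in Pim1 knockout cells, against 0.217 FPKM in wild-type cells (adjusted p = 0.000831), per the authors' deposited table. Lpl, the lipase that Angptl4 inhibits, was at 244.4 FPKM in Pim1 knockout cells and 234.7 FPKM in wild-type cells (adjusted p = 0.871), and the lipase maturation factor Lmf1 at 18.7 and 19.3 FPKM in Pim1 knockout and wild type (adjusted p = 0.917), per the authors' deposited table.

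Partners of RXR and the coregulators were called at about the rate of all tested genes, 13.5%. Of 7 tested RXR genes and partners 1 fell and 0 rose (14.3% called, median -0.09; 3 lower and 0 higher at an unadjusted p below 0.05, and 1 lower and 0 higher under the stricter reading). The vitamin D receptor, Vdr, fell to 2.09 FPKM in Pim1 knockout cells, against 4.34 FPKM in wild-type cells (adjusted p = 0.000831), per the authors' deposited table. The retinoic acid receptor gene Rara was at 35.7 FPKM in Pim1 knockout cells and 30.5 FPKM in wild-type cells, and Nr1h2, which encodes LXR beta, at 32.0 FPKM in Pim1 knockout cells and 34.1 FPKM in wild-type cells, neither called. Nr1h2 was 4.97 times as high as Nr1h3 in Pim1 knockout cells and 4.99 times as high in wild-type cells.

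Of 21 tested coactivators and corepressors 3 fell and 0 rose (14.3% called, against 13.5% of all tested genes, median 0.05). At an unadjusted p below 0.05 the counts were 3 lower and 1 higher, and 1 lower and 0 higher under the stricter reading. The nuclear receptor corepressor gene Nrip1 fell to 2.20 FPKM in Pim1 knockout cells, against 4.66 FPKM in wild-type cells (adjusted p = 0.000831), per the authors' deposited table. Lpin1, a phosphatidate phosphatase that also acts with PGC-1 alpha, fell to 4.59 FPKM in Pim1 knockout cells, against 6.81 FPKM in wild-type cells (adjusted p = 0.00399), and Ncoa4, also the cargo receptor for ferritin, to 39.9 FPKM in Pim1 knockout cells, against 51.7 FPKM in wild-type cells (adjusted p = 0.0411), per the authors' deposited table. Gps2, a subunit of the NCoR corepressor complex, was at 27.5 and 26.5 FPKM in Pim1 knockout and wild type and was not called. Of 11 tested factors that work with PGC-1, 1 rose and 1 fell (18.2% called, median -0.08), and under the stricter reading 0 were called, with 1 higher and 2 lower at an unadjusted p below 0.05. The muscle and myeloid factor Mef2c rose to 2.03 FPKM in Pim1 knockout cells, against 1.23 FPKM in wild-type cells (adjusted p = 0.00223), and the insulin-regulated factor Foxo1 fell to 1.04 FPKM in Pim1 knockout cells, against 1.81 FPKM in wild-type cells (adjusted p = 0.000831), per the authors' deposited table. The mitochondrial factors of that list, Tfb1m (9.55 and 11.4 FPKM in Pim1 knockout and wild type) and Sirt3 (8.60 and 9.43 FPKM in Pim1 knockout and wild type), were not called.

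Genes controlled by LXR went both ways. Of 18 tested LXR targets 3 fell and 1 rose (22.2% called, against 13.5% of all tested genes, median 0.03). Under the stricter reading 2 lower and 0 higher were called. The regulator of G-protein signalling Rgs1 fell to 15.5 FPKM in Pim1 knockout cells, against 42.3 FPKM in wild-type cells, and the phosphodiesterase gene Smpdl3a to 129.1 FPKM in Pim1 knockout cells, against 224.2 FPKM in wild-type cells (both adjusted p = 0.000831), per the authors' deposited table. The cholesterol exporter Abca1 fell to 13.4 FPKM in Pim1 knockout cells, against 18.2 FPKM in wild-type cells (adjusted p = 0.0119), whereas the desaturase Scd2 rose to 75.4 FPKM in Pim1 knockout cells, against 53.7 FPKM in wild-type cells (adjusted p = 0.00287), per the authors' deposited table. The lipid transport gene Apoe, the most abundant of the list, was at 768.8 FPKM in Pim1 knockout cells and 706.4 FPKM in wild-type cells (adjusted p = 0.679), per the authors' deposited table.

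Among genes known to regulate Pparg, the calls were all in one direction, and none held under the stricter reading. Of 20 tested genes 6 fell and 0 rose (30% called, against 13.5% of all tested genes), with a median log2 fold change of -0.22. At an unadjusted p below 0.05, 9 were lower and 0 higher, and 0 were called under the stricter reading. GM-CSF, present in the culture, induces Pparg in alveolar macrophages. The beta chain gene of the GM-CSF receptor, Csf2rb, was not called, at 276.9 FPKM in Pim1 knockout cells and 349.4 FPKM in wild-type cells (adjusted p = 0.0964), per the authors' deposited table. Its close relative Csf2rb2, which encodes a beta chain of the IL-3 receptor, fell to 117.9 FPKM in Pim1 knockout cells, against 169.4 FPKM in wild-type cells (adjusted p = 0.00156), per the authors' deposited table. These receptor genes are near-identical copies, so the division of reads between them is uncertain. The transcription factor Irf4 fell to 7.22 FPKM in Pim1 knockout cells, against 10.5 FPKM in wild-type cells (adjusted p = 0.00156), and the receptor chain Il13ra1 to 16.3 FPKM in Pim1 knockout cells, against 23.3 FPKM in wild-type cells (adjusted p = 0.00399), per the authors' deposited table. Gata2, which represses Pparg in preadipocytes, fell to 0.185 FPKM in Pim1 knockout cells, against 0.70 FPKM in wild-type cells (adjusted p = 0.00399), per the authors' deposited table. The other genes of the list that fell, named after their values were seen, were the GM-CSF receptor chain Csf2ra (85.9 FPKM in Pim1 knockout and 110.6 FPKM in wild type, adjusted p = 0.0474) and the transcription factor Klf4 (7.26 FPKM in Pim1 knockout and 10.3 FPKM in wild type, adjusted p = 0.0119), per the authors' deposited table. Spi1, the myeloid factor PU.1, was at 382.4 FPKM in Pim1 knockout cells and 359.2 FPKM in wild-type cells (adjusted p = 0.770), per the authors' deposited table.

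**Figure D4:**
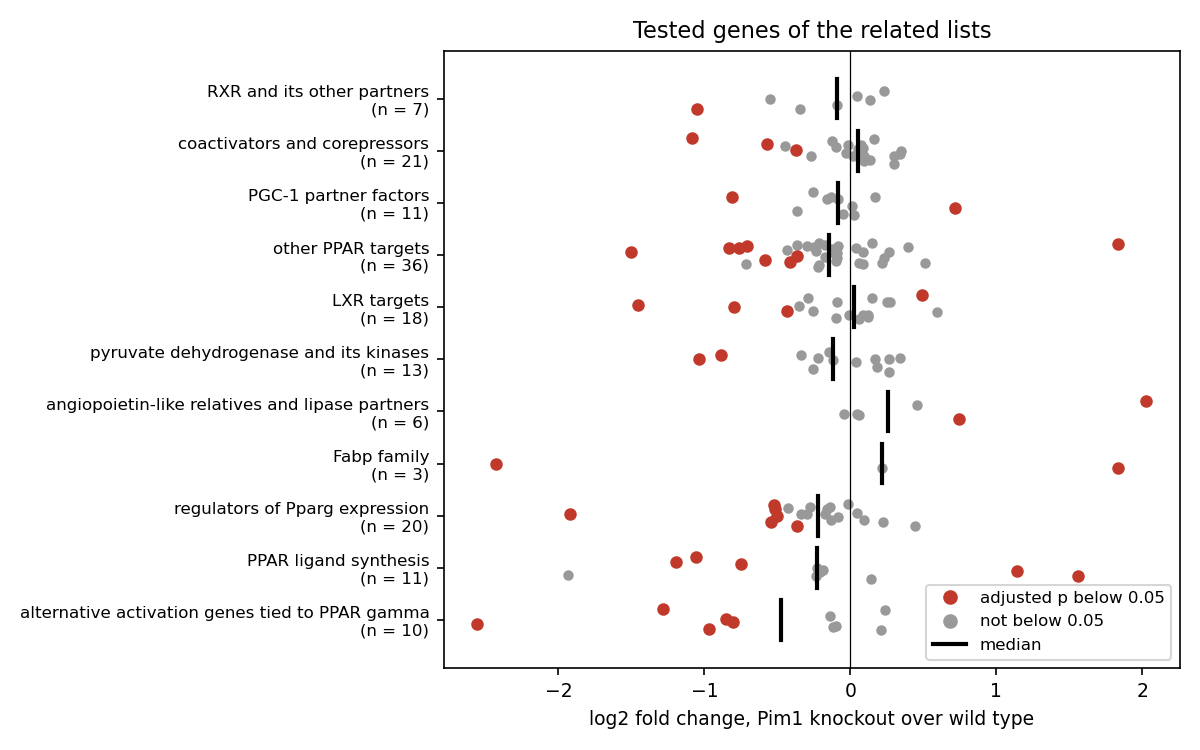
The log2 fold change, Pim1 knockout over wild type, of every tested gene with a finite fold change in the 11 lists of related genes, with n the number of genes plotted. Red points have an adjusted p below 0.05 and black bars are list medians, which run from -0.47 for alternative activation genes to 0.26 for angiopoietin-like relatives and lipase partners; vertical scatter within a list carries no meaning.

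Markers of several cell types differed between the genotypes alongside Pparg. For comparison, 13.5% of all tested genes were called, and 3.31% under the stricter reading. The marker lists, like the other lists, were written with earlier results of these data known. Of 7 tested markers of lung alveolar macrophages, cells that depend on GM-CSF and Pparg, 6 fell and 0 rose (4 and 0 under the stricter reading), and the list summed to 960.6 FPKM in Pim1 knockout cells and 1609 FPKM in wild-type cells. Among them Car4 was at 249.4 FPKM in Pim1 knockout cells and 793.9 FPKM in wild-type cells, and Marco at 5.16 and 11.4 FPKM in Pim1 knockout and wild type. Car4 and Chil3 (676.3 and 732.9 FPKM in Pim1 knockout and wild type) made up most of the sum in each genotype, so the sum says little of the other markers. Ear1, one of the called genes, was listed at 0 in Pim1 knockout cells and at 1.15 FPKM in wild-type cells, and Krt79, not tested, was listed at 0 in Pim1 knockout cells and at 0.0077 FPKM in wild-type cells. Without Chil3, Olr1 and Fabp1, which lists of PPAR-related genes also hold, 5 of 5 fell, and 3 under the stricter reading. Chil3 was the 1 tested marker of the full list that was not called. Siglecf and Ear1, kept in the shorter list, are also listed as eosinophil markers, and Itgax as a dendritic cell marker. Of 5 tested osteoclast markers 4 fell and 0 rose (3 and 0 under the stricter reading, 198.0 FPKM summed in Pim1 knockout and 412.4 FPKM in wild type, Calcr listed at 0 in both). Of 11 tested neutrophil markers 8 rose and 0 fell (6 and 0 under the stricter reading, 9426 FPKM summed in Pim1 knockout and 2525 FPKM in wild type). That sum was mostly S100a8 (6257 and 1308 FPKM in Pim1 knockout and wild type) and S100a9 (2029 and 369.3 FPKM in Pim1 knockout and wild type). Mmp8 (767.9 and 735.1 FPKM in Pim1 knockout and wild type), Cxcr2 and Retnlg were not called. Of 10 tested monocyte markers 5 rose and 1 fell (3 and 1 under the stricter reading, 1680 FPKM summed in Pim1 knockout and 1256 FPKM in wild type), and among them Plac8 was at 55.3 FPKM in Pim1 knockout cells and 2.08 FPKM in wild-type cells. Ms4a4c was at 3.45 and 0.629 FPKM in Pim1 knockout and wild type, and Fn1, the 1 that fell, at 147.3 and 386.0 FPKM in Pim1 knockout and wild type. At an unadjusted p below 0.05 the monocyte counts were 5 higher and 3 lower. Of 10 tested macrophage markers 0 were called in either direction (6998 FPKM summed in Pim1 knockout and 6022 FPKM in wild type), with 3 higher and 1 lower at an unadjusted p below 0.05 and 0 under the stricter reading. Other marker lists had few tested genes. Of 6 tested dendritic cell markers 1 rose and 1 fell, and of 3 tested mast cell and basophil markers 1 rose and 1 fell. Of 3 tested eosinophil markers 2 fell and 0 rose, and the 1 tested stromal marker, Lepr, fell. The part of these marker differences in the falls of Pparg and Angptl4 was not tested.

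Pparg and Fabp4 also mark adipocytes, whose other markers were near 0. Lep and Cfd were listed at 0 in both genotypes, Adipoq was at 0.0651 FPKM in Pim1 knockout cells and listed at 0 in wild-type cells, and Plin1 was at 0.0398 and 0.0583 FPKM in Pim1 knockout and wild type. Retn, the adipokine resistin, was the 1 gene of that list to rise, at 0.777 FPKM in Pim1 knockout cells and listed at 0 in wild-type cells. The sum of the adipocyte list, 245.3 FPKM in Pim1 knockout and 234.9 FPKM in wild type, was nearly all Lpl, which macrophages also express. Of the labelled surface antigens, the CD11b gene Itgam was at 151.8 FPKM in Pim1 knockout cells and 138.8 FPKM in wild-type cells, and the Gr1 component Ly6c2 at 997.1 FPKM in Pim1 knockout cells and 392.4 FPKM in wild-type cells. Ly6g, the other Gr1 component, was not analysed here.

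Both Ppard and Angptl4 lie on chromosome 17 near the targeted gene. In the coordinates of the authors' deposited table Ppard ends 1.19 Mb before Pim1 and Angptl4 begins 4.28 Mb after it. Pim1 itself had a log2 fold change of -1.99 (adjusted p = 0.000831), per the authors' deposited table, with a derived error of 0.25. Of 318 tested genes within 10 Mb of Pim1, 65 were called (20.4%), 35 higher and 30 lower, against 13.3% of tested genes elsewhere. Those called, named after their values were seen, included H2-Q2 (log2 fold change -5.65), H2-Q10 (-3.25) and Fgd2 (2.99). For Angptl4 loss of Pim1 and a difference in the chromosome segment around it cannot be told apart in this design. Pparg lies on chromosome 6.

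**Figure D5:**
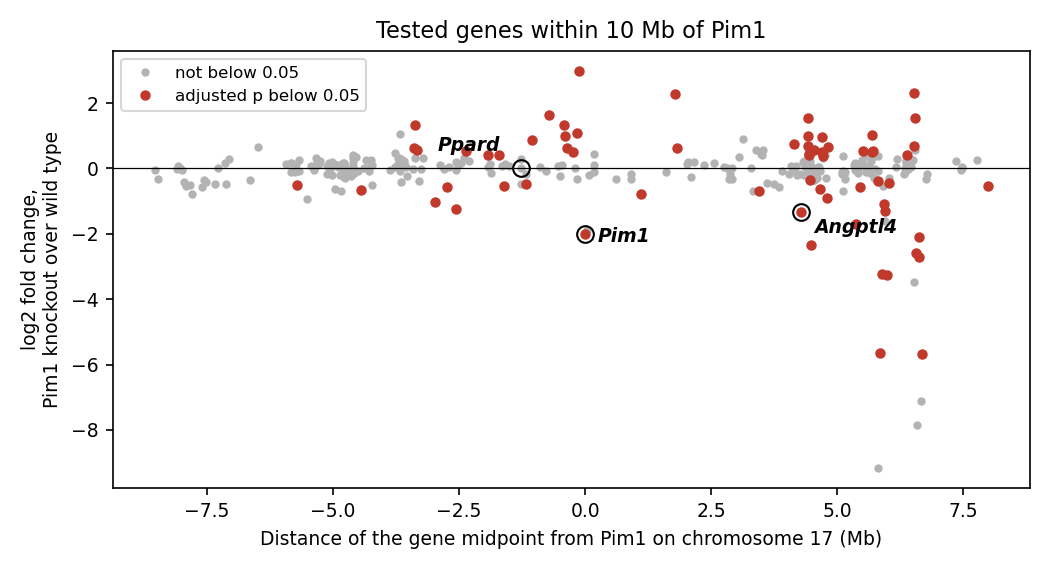
The log2 fold change, Pim1 knockout over wild type, of tested genes within 10 Mb of Pim1 against the distance of their midpoint from that of Pim1 on chromosome 17 in Mb. Red points have an adjusted p below 0.05, and circles mark Pim1 (-1.99), Ppard (0.01) and Angptl4 (-1.33).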

How the data were processed

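RNA of MDSC cultures from Pim1-/- and wild-type mice was sequenced by a Smart-seq2 protocol, with 3 libraries per genotype, per the labels' protocols. The authors deposited 1 table, in which the libraries of a genotype are pooled. Its expression values were read as FPKM from the column layout, since the deposited header names no unit. Per the file headers there is, for each gene, a log2 fold change with its test statistic (a score). A p-value and q-value column follow, as the authors deposited them. The aligner, counter and scaling: not given in the sources used here. Depth per library is unknown, so no counting interval is given.

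Calls are the authors' deposited q-values below 0.05. They equal a Benjamini-Hochberg adjustment over the 11079 tested rows within 5.28e-07. The planned limma fit was not run, because the values are pooled. The error of a log2 fold change is the deposited fold change divided by its test statistic, and 95% intervals are normal. The deposited p-values correspond to deviates 1.74 times the test statistic, so these errors are wider than those behind the p-values, and taking the statistic for a standard normal value (11049 rows, the stricter reading) was an alternative. The adjustment was run on simulated normal test statistics, which follow the stricter reading, so the simulation does not check the deposited p-values.

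The 10 genes, the 11 further lists and the lists of cell type markers were chosen with earlier results of these data known. Their counts are therefore not independent of the data. Beside the 10 genes and Pim1, the rule named up to 4 called and the 2 most abundant genes of each list. Cell type markers were outside it. Per the submitters' processing notes the build is mm10. Only 12.8% of loci of 23045 matched symbols overlap their GRCm38 gene, however, so the build of the table's coordinates is unsettled, and they are kept apart from the GRCm38.p6 promoter windows. Software was Python 3.11.15, pandas 2.3.3, numpy 2.4.6, scipy 1.17.1 and matplotlib 3.10.9.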

Additional observations from a re-analysis of the deposited data

How the results depend on the processing

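Pparg and Angptl4 stayed below an adjusted p of 0.05 in each alternative that tested them. Their direction was not put to a test. The readjusted p-values keep the deposited fold change, a pseudocount cannot reverse it, and the scaling shifts were small beside it. The highest adjusted p, reached when the statistic was taken for a standard normal value (the stricter reading), was 0.0102 for Pparg and 0.00695 for Angptl4. A pseudocount of 5 moved the log2 fold change of Pparg to -0.74 and that of Angptl4 to -0.64, since adding a constant shrinks changes of low levels. The count of 2 genes of the group called lower became 1 at a mean level of at least 10 and 1 without genes within 10 Mb of Pim1, since each removes Angptl4. Among all tested genes, 752 were called higher and 746 lower. The counts were 204 and 162 under the stricter reading, 350 and 365 at a mean of at least 10, and 515 and 458 at an adjusted p of 0.01. Over the related lists together, 7 were called higher and 32 lower, against 4 and 10 under the stricter reading and 3 and 17 at a mean of at least 10. Median centring, equal sums and upper-quartile scaling shifted log2 fold changes by -0.01, 0.07 and -0.01. No paired analysis was possible because the table pools the replicates of a genotype, and leaving out replicates was not run for the same reason.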

Other observations

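Genes that make or clear PPAR ligands, and genes of alternative macrophage activation that PPAR gamma is known to favour, were examined beside the 10 genes. Of 11 tested genes of ligand synthesis 2 rose and 3 fell (45.5% called, against 13.5% of all tested genes, median log2 fold change -0.23). Hpgds, the prostaglandin D synthase of blood cells, rose to 9.46 FPKM in Pim1 knockout cells, against 3.21 FPKM in wild-type cells, and the lipoxygenase Alox5 to 34.9 FPKM in Pim1 knockout cells, against 15.8 FPKM in wild-type cells (both adjusted p = 0.000831), per the authors' deposited table. These 2 were also called under the stricter reading. Pla2g7, which hydrolyses oxidised phospholipids, fell to 277.3 FPKM in Pim1 knockout cells, against 466.2 FPKM in wild-type cells (adjusted p = 0.000831), and Cyp2j6 to 0.380 FPKM in Pim1 knockout cells, against 0.789 FPKM in wild-type cells (adjusted p = 0.0105), per the authors' deposited table. The remaining gene that fell, named after its values were seen, was the lipoxygenase Alox15, at 0.268 FPKM in Pim1 knockout cells and 0.614 FPKM in wild-type cells (adjusted p = 0.0387), per the authors' deposited table. The lysosomal acid lipase Lipa was at 117.3 FPKM in Pim1 knockout cells and 138.0 FPKM in wild-type cells (adjusted p = 0.269), per the authors' deposited table.

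Of 10 tested alternative activation genes 5 fell and 0 rose (50% called, median log2 fold change -0.47), with the same counts at an unadjusted p below 0.05 and 3 lower and 0 higher under the stricter reading. Retnla, a secreted product of alternatively activated macrophages, fell to 16.8 FPKM in Pim1 knockout cells, against 98.6 FPKM in wild-type cells, and the beta-glucan receptor Clec7a to 93.6 FPKM in Pim1 knockout cells, against 168.5 FPKM in wild-type cells (both adjusted p = 0.000831), per the authors' deposited table. Arginase 1, Arg1, fell to 2250 FPKM in Pim1 knockout cells, against 4394 FPKM in wild-type cells, and the scavenger receptor Cd163 to 0.488 FPKM in Pim1 knockout cells, against 1.19 FPKM in wild-type cells (both adjusted p = 0.000831), per the authors' deposited table. The remaining gene that fell, named after its values were seen, was the PD-1 ligand gene Pdcd1lg2, at 7.89 FPKM in Pim1 knockout cells and 13.8 FPKM in wild-type cells (adjusted p = 0.000831), per the authors' deposited table. Chil3 was at 676.3 FPKM in Pim1 knockout cells and 732.9 FPKM in wild-type cells (adjusted p = 0.703), per the authors' deposited table. The other genes not called, named after their values were seen, were Mrc1, Il4ra, Clec10a and Mgl2. Mrc1 was at 41.8 and 44.7 FPKM in Pim1 knockout and wild type, and Il4ra at 65.1 and 71.9 FPKM. Clec10a was at 49.6 and 42.9 FPKM in Pim1 knockout and wild type, and Mgl2 at 264.6 and 224.6 FPKM.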
